A study of Homo sapiens with 2 samples.

Results

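A set of 344 protein-coding genes had counts of chromatin-associated RNA in their exons almost solely from the strand opposite to their own. They were chosen from the counts themselves: the files list 18690 of the autosomal protein-coding genes of GENCODE version 44, and such a gene was taken when its mean antisense count over both libraries was at least 30 and at least 10 times its mean sense count plus 1. The 344 genes are 1.84% of those 18690, and because the antisense and sense counts chose them, those counts are given below as a description only. What the choice did not use is the position of the genes of the other strand, and most of the account concerns that.

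The RNA came from SH-SY5Y, a human neuroblastoma cell line, without genetic modification. Cells were fractionated, the RNA bound to chromatin was isolated, and 2 libraries (replicates 1 and 2) of the 1 condition were made with a kit that keeps the strand and adds molecular identifiers. There was no treated or control group to compare. No source used here says whether separate cultures stood behind the replicates, so the spread between them may be technical.

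RNA that is still bound to chromatin is rich in transcripts that are being made or have just been made, with introns and the stretch beyond the polyadenylation site still present. Genes on opposite strands often overlap or lie end to end, so an unspliced transcript of 1 gene, or its tail beyond the annotated end, can run through the exons of another on the other strand. A strand-aware count lists such RNA as antisense of the second gene, and antisense transcripts with promoters of their own are counted the same way.

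In each library a read pair is counted for a gene when it lies in the exons of that gene, once per strand. Uniquely mapped pairs numbered 22446529 in replicate 1 and 19566145 in replicate 2, and most of them are in neither strand column. Sense RNA in the introns of a gene is therefore not seen here. Over all genes the antisense column held 540916 counts in replicate 1 and 436277 in replicate 2, which was 11.5% and 11.3% of both strand columns together. The sense column held 4155210 and 3425309. A gene with 0 sense counts may thus have had up to 3, or 0.722 and 0.876 per 1000000 sense counts, and this covers counting error only. In such a bulk sample, few cells with much RNA and many cells with little cannot be told apart. Of the markers looked at, 8 of 8 adrenergic neuroblast genes had mean sense counts between 243 and 3188.5, and 11 of 11 markers of leukocytes, endothelium, Schwann cells and melanocytes, hepatocytes and muscle had a sense count of 0 in both libraries.

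The 344 genes held 56643 of the antisense counts in replicate 1 (10.5%) and 46549 in replicate 2 (10.7%). Their mean antisense count had a median of 69.5, an interquartile range of 45 to 128 and a highest value of 13552.5. On the sense strand 148 of them (43.0%) had 0 counts in both libraries, 206 had a mean under 1, and 18 had a mean of at least 10, the highest being 27 for FILIP1L. For scale, 1852 of the 18690 coding genes (9.91%) reached an antisense mean of 30, of which the 344 are 18.6%, and 7699 (41.2%) met the mirror of the rule and were mainly sense.

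**Figure D1:**
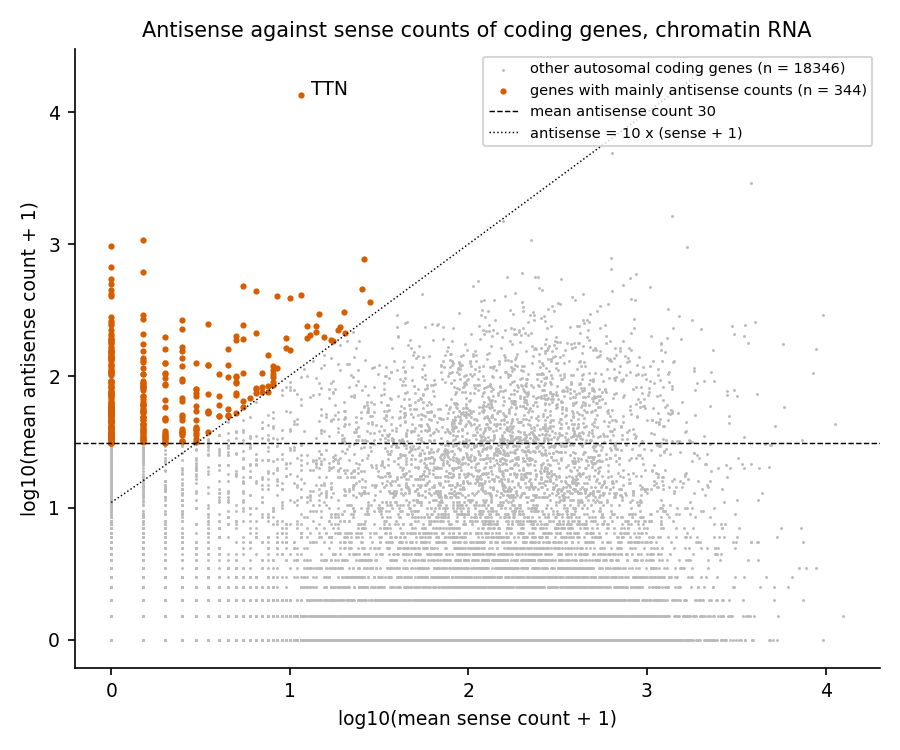
Mean antisense count (y axis) against mean sense count (x axis) over both replicates, each as log10(count + 1), for 18690 autosomal protein-coding genes. Each point is a gene, with the 344 genes with mainly antisense counts in orange above the dashed line (mean antisense count 30) and the dotted line (antisense 10 times sense plus 1), and TTN far above the rest at 13552.5.

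The other-strand gene of each of the 344 was found from the annotation. A neighbour is here a gene of any class on the other strand with a mean sense count of at least 10. An overlapping neighbour was taken first, the one with the highest count where there were several, and otherwise the nearest within 100 kb. By this definition 272 of the 344 (79.1%) overlapped their neighbour, against 4057 of the 18690 coding genes (21.7%). Another 59 (17.2%) had a convergent neighbour, which lies apart beyond the 3′ end and points toward the gene, so that RNA passing its annotated end would enter the gene from behind. All coding genes had such a neighbour in 25.4% of cases. A divergent neighbour, which starts upstream and points away, was found for 9 (2.62%) against 24.0%, and no neighbour at all for 4 (1.16%) against 28.9%. The minimum of 10 favours the chosen genes, since a read pair in exons of both strands can count for both the gene and its neighbour. When any other-strand gene with a row was taken, whatever its count, the contrast was smaller: 298 of the 344 (86.6%) overlapped one, against 52.9% of all coding genes, and 0 against 2.19% had none.

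The overlaps were of several kinds, which were set apart after the values had been seen. In 146 cases (42.4%) the 3′ ends overlapped tail to tail, against 10.1% of all coding genes. In 76 (22.1%) the gene lay wholly inside its neighbour, against 2.51%. In 28 (8.14%) the 5′ ends overlapped head to head, against 7.67%, and in 22 (6.40%) the neighbour lay wholly inside the gene, against 1.47%. A better yardstick is the 1508 coding genes that also reached an antisense mean of 30 but had too many sense counts for the rule. They overlapped a neighbour nearly as often, in 76.6% of cases (86.9% when a gene of any count was taken), and more of them tail to tail (51.7%), but 4.31% of them lay inside the neighbour. Head-to-head overlaps made up 14.9% of them, and in 5.7% the neighbour lay wholly inside the gene. Their share with a convergent neighbour was 18.7% and with a divergent one 4.05%. These shares were not tested against each other.

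**Figure D2:**
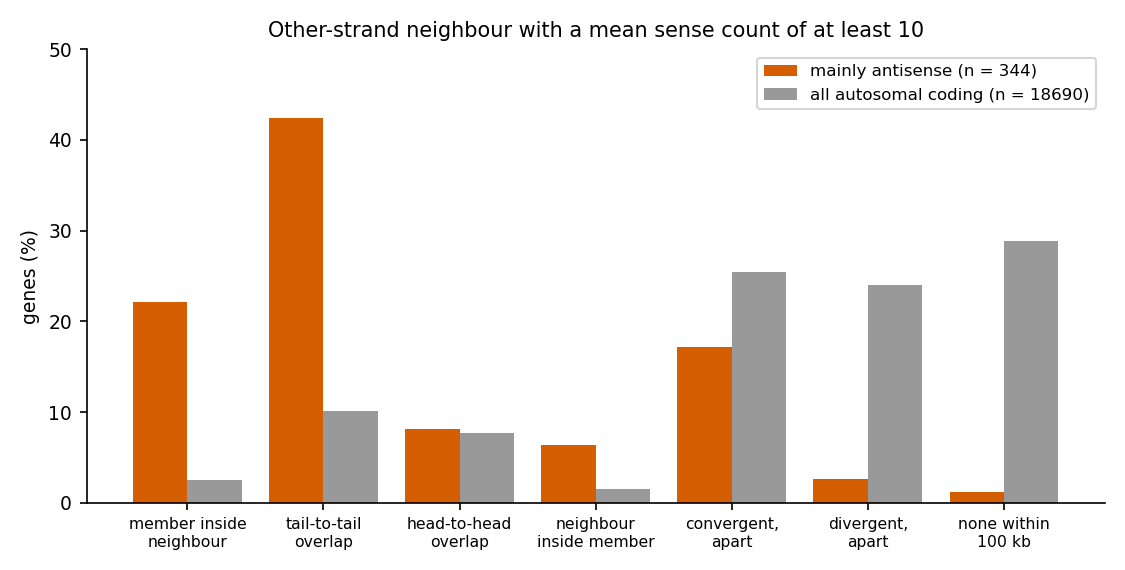
Share of genes in percent (y axis, from 0) for each position of the other-strand neighbour with a mean sense count of at least 10 (x axis), for the 344 genes with mainly antisense counts (orange) and all 18690 autosomal coding genes (grey). Genes inside their neighbour make up 22.1% of the orange and 2.51% of the grey set, and genes with no neighbour within 100 kb 1.16% and 28.9%.

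Of the 340 genes with a neighbour, 268 (78.8%) had a protein-coding one and 60 (17.6%) a long noncoding RNA, against 86.6% and 10.8% over all coding genes that had a neighbour. The neighbour was named as the gene's own antisense RNA in 12 cases (3.53%), as a divergent transcript in 8 (2.35%) and as a snoRNA host gene in 5 (1.47%). Such names were not counted over all coding genes, so these shares cannot be compared. There were 325 distinct neighbours, of which 11 served 26 of the genes, so the 344 are not independent of each other.

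TTN stood far above all others. It codes for titin, the giant spring protein of the sarcomere of striated muscle, and lies on the minus strand at chr2:178525989-178830802. Its antisense count was 14705 in replicate 1 and 12400 in replicate 2, and its sense count 12 and 9. Both libraries thus gave more than 1000 antisense pairs for every sense pair. TTN alone was 2.72% and 2.84% of all antisense counts in the files and 26.3% of those of the 344 genes. Without it the other 343 held 7.75% and 7.83%.
Across the body of TTN lie 9 genes of the other strand with a mean sense count of at least 10. The main one is TTN-AS1, a long noncoding RNA that overlaps TTN tail to tail, shares 14004 bases of exon with it and had 3936 and 3356 sense counts. The next were ENSG00000279598 with a mean of 584.5, ENSG00000270277 with 240 and ENSG00000271141 with 231. TTN had 3.72 times the counts of TTN-AS1, but it also has far more exon, 118976 bases. Per kb of exon, TTN had 114 antisense counts and TTN-AS1 143 sense counts, so the noncoding gene was the denser of the pair.

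A property of the counting bears on every overlapping pair. A read pair that touches exons on both strands is counted as antisense of the coding gene, but for no gene in the count that ignores strand. It is also counted as sense of the other-strand gene, unless it lies in exons of several genes of that strand. The antisense plus sense count minus the unstranded count, divided by the antisense count, therefore gives the share of a gene's antisense pairs that also lay in exons of the other strand. It can pass 100% a little, since some sense pairs are shared as well, and its highest value was 106%. For TTN the share was 31.2% in both replicates, and its unstranded count, which leaves shared pairs out, still had a mean of 9333.5.

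Over the 344 genes the share had a median of 13.4% and fell into extremes. At least 50% of the antisense pairs were shared in 98 genes and at most 5% in 147. Of the 198 genes whose exons overlap those of the neighbour, 93 shared at least 50%, with a median of 46.2%. Tail-to-tail and head-to-head pairs had medians of 45.9% and 49.9%. Where gene bodies overlap without a common exon the median was 0, and 59 of 74 shared at most 5%. For the genes with a high share, the antisense count and the sense count of the neighbour can to that extent be the same read pairs. Shared pairs in exons of several other-strand genes, or of a gene other than the neighbour, are not in the neighbour's count.

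**Figure D3:**
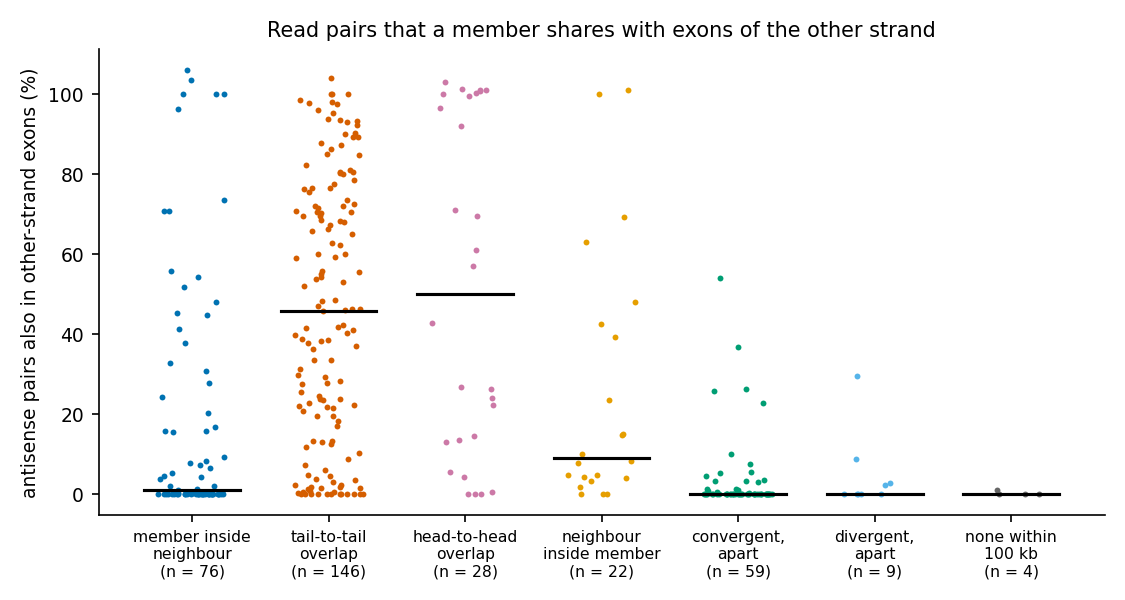
Antisense read pairs of a gene that also lie in exons of the other strand, as a percentage of its antisense pairs (y axis), by position of the neighbour (x axis, with the number of genes). Each point is 1 of the 344 genes and each black line a median, which is 45.9% for tail-to-tail overlaps, 49.9% for head-to-head overlaps, 1.14% inside the neighbour and 0 for convergent genes.

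After TTN and A2M, the tail-to-tail pairs with the most antisense counts differed in how much they shared. ITGBL1, an integrin-like secreted protein, had 660 and 572 antisense and 1 and 0 sense counts. Its neighbour FGF14, an intracellular modulator of sodium channels, had 4045 and 3580 sense counts, the 2 genes share 4356 exon bases, and 97.6% of the antisense pairs of ITGBL1 lay in exons of the other strand. Nearly every antisense pair of ITGBL1 thus lay in an exon of the other strand, where FGF14 was the gene with counts.
A high share was also found for SLC24A5, the cation exchanger of pigment granules, with 501 and 391 antisense counts and 93.7% shared beside MYEF2 (2172 and 1817), a transcriptional repressor. ZACN, a zinc-activated channel, had 558 and 439 with 89.3% shared beside EXOC7 (1463 and 1125) of the exocyst. TRIM59, a ubiquitin ligase, had 482 and 424 with 72.1% shared beside SMC4 (2368 and 2171), a subunit of condensin. All 4 neighbours had the higher count of the pair in both replicates.

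Other tail-to-tail pairs shared little. A2M codes for alpha-2-macroglobulin, a protease inhibitor of the plasma made mainly by the liver. Its antisense count was 1056 and 876 with 0 sense counts, 4.87% of it shared. A2M-AS1 reaches over its 3′ end and had 242 and 180 sense counts, so A2M was the denser of the pair per kb of exon (153 against 71.6).
MCTP1, a membrane protein with calcium-binding C2 domains, had 533 and 435, of which 0.620% was shared with exons of the other strand, beside SLF1 (692 and 617), a gene of the DNA damage response whose 3′ end lies inside MCTP1 without a common exon. GLIPR1, a secreted protein of the CAP family, lay between these extremes with 452 and 424 and 41.0% shared beside KRR1 (807 and 713), a ribosome assembly factor.

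SLC18A2, the vesicular monoamine transporter of catecholamine cells, is named here after its values were seen because its known site of use is close to the origin of the cell line. It had 58 and 65 antisense and 0 sense counts, with 86.2% of the pairs in exons of the other strand. PDZD8 (285 and 230) overlaps it tail to tail, and a further other-strand gene with counts overlaps it as well.

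The 76 genes that lie inside a gene of the other strand gave the other pattern. In 42 of them no exon was common with the neighbour, so that their exons lie in what is annotated as intron of the neighbour, and most of these genes shared no pair with other-strand exons (median 0). Their antisense count per kb of exon had a median of 31.6 and the sense count of their neighbours a median of 24.0, and the ratio of the 2 in each pair a median of 1.08 with an interquartile range of 0.557 to 2.08. The pairs ran from 0.115 to 6.07. Both densities come from counts that had to pass a minimum, so inner genes of low density are not among them and the ratio is a description only.

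GPR22, an orphan receptor, lies in COG5, a subunit of a Golgi tethering complex. It had 396 and 407 antisense counts against 825 and 687 sense counts for COG5, or 108 against 90.0 per kb. FILIP1L lies in CMSS1 and had 378 and 346 against 181 and 133, or 50.05 against 21.8 per kb. In both pairs the inner gene was the denser, and neither shared any pair with other-strand exons.
RGL4, a guanine nucleotide exchange factor for Ral, had 425 and 382 antisense counts and 0 sense counts inside the pseudogene ENSG00000272578 (51 and 38). Here 70.9% of the pairs were shared although that pseudogene has no exon in common with RGL4. A further gene of the same strand as the pseudogene, GUSBP11, shares 2468 exon bases with RGL4 and had counts of 1 and 0. In which exons the shared pairs lay was not tested.

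Some hosts carried several such genes. CENPP, a centromere protein on the plus strand at chr9:92325953-92620529, had 233 and 215 sense counts or 24.0 per kb of exon. Within it lie ASPN, OGN and OMD, small leucine-rich proteoglycans of the extracellular matrix, and ECM2, a related matrix protein. ECM2 had 230 and 225 antisense counts, OGN 176 and 201, ASPN 159 and 150, and OMD 50 and 65. Per kb of exon this was 62.6 for ASPN, 46.9 for OGN, 46.3 for ECM2 and 13.3 for OMD, so 3 of the 4 were denser than the host and OMD was below it in both replicates.
NF1, the Ras GTPase-activating protein neurofibromin, had 2539 and 2184 sense counts or 57.4 per kb. The 3 genes in it were OMG, the oligodendrocyte-myelin glycoprotein, with 218 and 179 or 51.7 per kb, EVI2A with 76 and 105 or 29.3 per kb, and EVI2B with 39 and 49 or 21.3 per kb. All 3 lay below NF1.
The noncoding UBA6-DT, with 343 and 264 sense counts or 22.1 per kb, runs through TMPRSS11D (286 and 273, 85.6 per kb) and TMPRSS11A (94 and 88, 22.98 per kb), serine proteases of epithelia, and through GNRHR (144 and 158, 34.3 per kb), the receptor for gonadotropin-releasing hormone. None of the 3 was below the host on the means.
A last host was added after its values were seen. UBAC2, with 292 and 247 sense counts or 57.7 per kb, held the leukocyte receptors GPR183 (212 and 200, 122 per kb) and GPR18 (184 and 165, 87.3 per kb). In each of the 4 hosts the highest and lowest gene lay farther apart per kb than the replicates of any of them, though some genes, such as OGN and ECM2, lay close together.

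**Figure D4:**
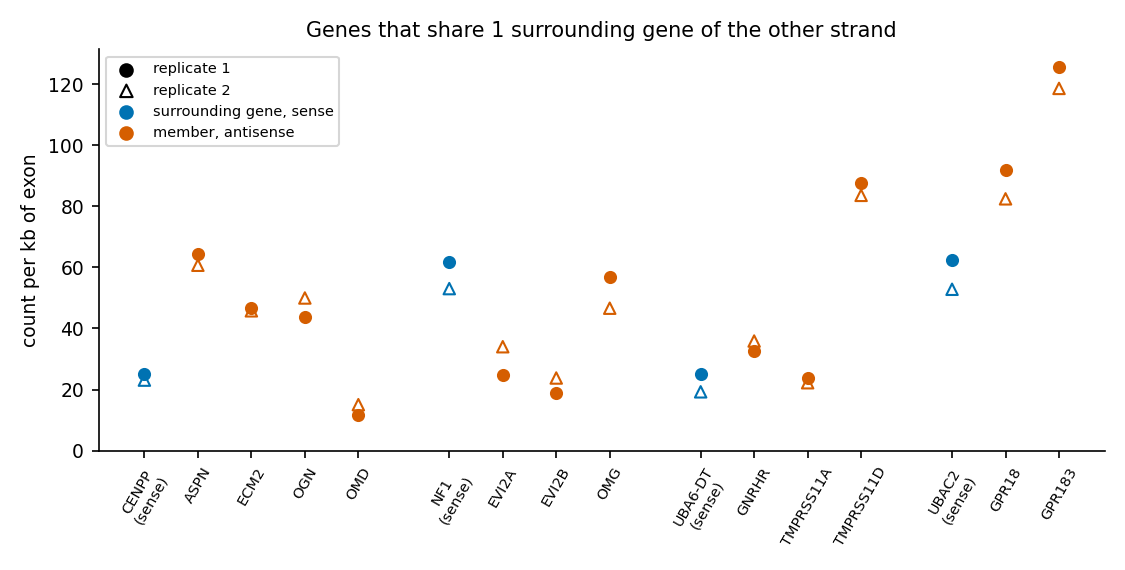
Counts per kb of exon (y axis, from 0) for 4 host genes on their own strand (blue) and for the genes inside them on the opposite strand (orange), with replicate 1 as filled circles and replicate 2 as triangles. The highest and lowest gene of 1 host lie farther apart than the replicates of any gene, as in CENPP, where ASPN stands at 62.6 and OMD at 13.3 on the mean. Other genes of 1 host lie close together, such as OGN at 46.9 and ECM2 at 46.3.

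For the 59 genes with a convergent neighbour the annotated genes do not meet. The distance from the end of the neighbour to the end of the gene ran from 1 to 86637 bases with a median of 3467. The last 30 bases of some of these neighbours are shown in the direction of transcription to place the annotated ends beside the counts beyond them, with AATAAA or ATTAAA, the hexamers that mark most polyadenylation sites, in capitals where present. The sequences are from hg38, the build of the files, at the gene ends of GENCODE version 44.
SLC30A6, plus strand, chr2:32224350-32224379, 74 bases from NLRC4: catcaaATTAAActtctttccacgtcctta
FUBP1, minus strand, chr1:77944055-77944084, 160 bases from NEXN: tcctcAATAAAtgtacattgatgactatta
APH1A, minus strand, chr1:150265399-150265428, 321 bases from CA14: ttgactAATAAAaaagaatttgtaattgtg
RPL9, minus strand, chr4:39452587-39452616, 1054 bases from KLB: cacttaccttcaggtctattcagtgaatcc
Either hexamer stood in the last 50 bases before the annotated end in 44 of the 59 convergent neighbours (74.6%), against 13557 of all 18690 autosomal coding genes (72.5%). For the 50 coding ones among these neighbours it was 39 (78.0%), against 74.7% of the coding genes with a mean sense count of at least 10. The shares are close, and only the strand of the neighbour was searched. A missing hexamer, as at RPL9, says only that these letters are not in that window.

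NEXN, an actin-binding protein of heart and skeletal muscle, had 237 and 232 antisense counts at 160 bases from the end of FUBP1, a single-strand DNA-binding regulator with 3325 and 2754 sense counts. Per kb of exon this was 52.9 against 399. HACD4, an enzyme of fatty acid elongation, had 422 and 398 beyond FOCAD (779 and 672), a focal adhesion protein, at a distance of 3554 bases, or 44.8 against 74.4 per kb. RAB26, a small GTPase of secretory vesicles, had 259 and 173 beyond the snoRNA host gene SNHG19 (61 and 52), 627 bases away, or 86.8 against 92.0 per kb.
SCRG1, first described in scrapie, had 215 and 187 beyond SAP30 (80 and 66), a subunit of a histone deacetylase complex, at 7169 bases, or 39.4 against 55.8 per kb. KLB, the co-receptor for hormones of the FGF family, had 45 and 54 antisense and 0 sense counts at 1054 bases from RPL9 (651 and 623), a ribosomal protein, or 8.25 against 129 per kb. So on the means the antisense density beyond the end lay below that of the neighbour in each of these 5 pairs, by a factor that differed widely from pair to pair. For RAB26 this held in replicate 2 only, and in replicate 1 it was the denser of the pair.

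The median ratio of antisense density to neighbour density was 0.229 over the 59 convergent pairs, and 3 of them had the higher density in the gene. The ratio had a median of 0.316 for the 12 pairs up to 1 kb apart, 0.174 for 22 pairs from 1 to 5 kb, 0.370 for 17 pairs from 5 to 20 kb and 0.309 for 8 pairs beyond that, and all of these but the 22 hold under 20 pairs. Across the 59 genes the antisense density had a Spearman correlation of -0.359 with the distance and the ratio one of 0.189. The genes differ in length and base composition, had to pass the same count minimum at every distance, and were all counted in the same libraries.
No pair was shared with other-strand exons in most of them, and 50 of 59 shared at most 5%. In 37 of the 59 there was no other-strand gene of any count over the gene. Of these, CCN6 shared 54.1% of its pairs (43 and 42 antisense counts, 977 bases from TUBE1), GPAT2 36.8% (63 and 51, 338 bases from FAHD2CP) NLRC4 25.7% (95 and 80, 74 bases from SLC30A6) and SPDYE3 10% (52 and 28, 6640 bases from PMS2P1), although GENCODE version 44 has no exon of the other strand there among the genes with a row. In which exons these pairs lay was not tested. These 4 are named after their values were seen.

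PZP, the pregnancy zone protein, is a relative of A2M and lies 32611 bases from it on the same strand. It had 626 and 467 antisense and 0 sense counts. Its nearest neighbour by the definition was BTG1P1, a processed pseudogene with 58 and 52 counts at 13249 bases, so PZP had 9.94 times the counts of the only gene assigned to it. The exon density of PZP was 87.4 antisense counts per kb, against 153 for A2M.

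The 28 head-to-head pairs contained the genes with the most divided values. GLRX5, a mitochondrial glutaredoxin of iron-sulfur cluster assembly, had 985 and 558 antisense counts and 25 and 25 sense counts. SCARNA13, a small RNA of Cajal bodies, overlaps its 5′ end by 127 bases and had 956 and 520. A second gene there, SNHG10, had 110 and 108. The share of pairs in other-strand exons was 100%, and both GLRX5 and SCARNA13 were higher in replicate 1 than in replicate 2. TUBA1C, a tubulin gene named after its values were seen, had 311 and 178 with 101% shared beside TUBA1A (1392 and 992), another tubulin.
FSIP2, a protein of the fibrous sheath of the sperm tail, was of the opposite kind. It had 1218 and 919 antisense counts and a mean sense count of 0.5, but shared 4.21% of its pairs, and FSIP2-AS1 had 81 and 81. Its count was thus 13.2 times that of the neighbour, the highest ratio of the 340, while per kb of exon the ratio was 1.33. PMCH, which codes for the precursor of melanin-concentrating hormone and is named after its values were seen, had 80 and 67, with 100% in exons of the other strand. Its neighbour was HELLPAR (302 and 248), a very long noncoding RNA, and a further other-strand gene with counts also overlaps it.

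In 22 cases the neighbour was the smaller gene, inside the coding gene. MARCHF1, a membrane-bound ubiquitin ligase of antigen-presenting cells, had 719 and 629 antisense and 0 sense counts and shared none with other-strand exons, beside ENSG00000273449 (147 and 111), which lies within it. Of the 29 genes with at least 3 times the counts of their neighbour, which include SCUBE3 (249 and 244 against 33 and 34 for SCUBE3-AS1) and BLK (119 and 129 against a mean of 14.5), most had a noncoding neighbour with a low count.

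Divergent neighbours were few. STAG3, a cohesin subunit of meiosis, had 156 and 132 antisense counts with GPC2 (334 and 258), a glypican of the nervous system, starting 182 bases upstream. Of its antisense pairs 29.5% lay in exons of the other strand, although GPC2 does not overlap it. In which exons they lay was not tested. The next by count lay much farther from their neighbour. TNK1, a non-receptor tyrosine kinase, had 153 and 83 at 51141 bases from NEURL4, C2orf16 had 99 and 73 at 42186 bases from FNDC4, ARHGAP30 had 83 and 80 at 48116 bases from NIT1, and TRHR, the receptor for thyrotropin-releasing hormone, had 75 and 64 at 23168 bases from ENSG00000253796. At such distances the neighbour is only the nearest gene with counts. TNK1 is also overlapped at its 3′ end by PLSCR3, which had a mean sense count of 2.5 and so was not taken as neighbour.

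For 4 genes no neighbour was found within 100 kb. LSR, a receptor for lipoproteins, had 139 and 73 antisense counts. RASSF9 had 48 and 58, SPTLC3, a subunit of serine palmitoyltransferase, 47 and 44, and HEPHL1, a copper-dependent ferroxidase, 39 and 43. All 4 had mean sense counts of 0.5 or 0.

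Set against each other over the 340 pairs, the antisense density of the gene and the sense density of the neighbour had a Spearman correlation of 0.362 and a Pearson correlation of 0.369 on the log10 scale. It was 0.427 (Spearman) for the 198 pairs with common exons, part of whose reads are the same, 0.429 for the 59 convergent pairs and 0.293 for the 74 overlaps without a common exon. On raw counts, not divided by exon length, these 3 values were 0.465, 0.00095 and 0.158. For the convergent pairs the correlation was thus present per kb of exon only. Both members of a pair come from the same libraries. The gene was the denser of the pair in 75 of 340 cases (22.1%), in 27 of the 74 overlaps without a common exon and in 3 of the 59 convergent pairs. The counts behind both densities had to pass a minimum, so the following ratios are descriptions. By position, the median ratio of densities was 1.13 for genes inside their neighbour, 0.612 head to head, 0.517 with the neighbour inside, 0.403 tail to tail, 0.294 divergent and 0.229 convergent, and 0.486 in all. The highest median thus belonged to genes lying within their neighbour and the lowest to genes lying apart from it, and single pairs spread far to both sides of each median.

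**Figure D5:**
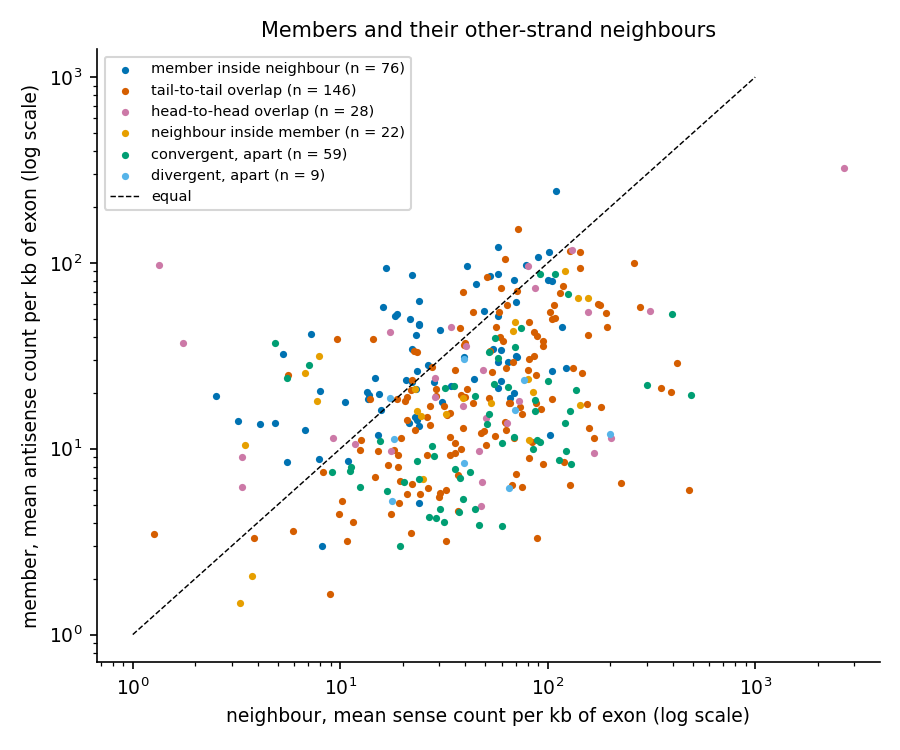
Mean antisense count of a gene per kb of its exons (y axis, log scale) against mean sense count of its other-strand neighbour per kb of exons (x axis, log scale) for 340 genes, coloured by position. On the dashed line the densities are equal, and genes inside their neighbour lie around it (median ratio 1.13) and convergent genes mostly below it (median ratio 0.229).

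The replicates gave like values for these genes. Scaled to the counts of both strand columns, the antisense counts of replicates 1 and 2 were within a factor of 2 of each other in 340 of 344 genes, with a median ratio of 0.998 and 172 genes higher in replicate 1. The rule was met in each library on its own by 275 of the 344. Just inside the count minimum lay ACSL5, C3orf49 and CACNA2D4 with a mean of 30, and just outside it ERICH6B and ERVH48-1 with 29.5. Just inside the ratio lay ANGPTL1 (10), PLXDC1 (10.2) and HAS3 (10.3), and just outside it KDELR3 (9.78), TRPM5 (9.54) and RNF32 (9.53). The genes on either side of the thresholds thus differed by less than the replicates of 1 gene.

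By gene symbol the set was mixed. Solute carriers supplied 17 of the 371 such genes with a row (4.58%), G protein receptors with GPR or ADGR names 6 of 104 (5.77%), collagens 4 of 42 (9.52%) and protocadherins 3 of 63 (4.76%), beside 1.84% of all coding genes. Zinc finger genes supplied 4 of 597 (0.670%). There was no olfactory receptor among 409, no keratin or keratin-associated gene among 152, no histone among 81, no HOX gene among 39 and no ribosomal protein gene among 88. No family was tested.

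The promoters of the 344 genes, taken as 250 bases before to 50 after the annotated start, held a median of 7 CpG dinucleotides, against 18 over all 18690 coding genes and 24 over the 7699 mainly sense genes. Those inside their neighbour had a median of 4. The exon length of the set (median 4350 bases) was near that of all coding genes (4541.5) and below that of the mainly sense genes (6338). The rule required low sense counts, and the part of this in the CpG numbers was not tested.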

How the data were processed

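The 2 libraries hold RNA bound to chromatin in SH-SY5Y cells, all of 1 condition. Per the labels and the methods of the study, the authors extracted molecular identifiers (UMI-tools), trimmed reads, removed spike-in and ribosomal reads with Bowtie, mapped to hg38 with STAR, removed duplicates and mapped again. For versions, STAR options and the annotation release: not given in the sources used here. Deposited values are raw counts of read pairs per gene from STAR, unstranded and for each strand. The strand with the higher total was taken as sense.

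Of 60554 genes, 56558 were found by identifier in GENCODE version 44, which gave names, classes, exons and positions, and 3996 were not used. Pairs in exons of several genes of 1 strand are in no count. Means over replicates, counts per kb of exon, neighbours and shares were computed with Python 3.11.15 and pandas 2.3.3, checked on simulated data. With 1 condition no test was possible, and all results are descriptive.

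The genes and lists were chosen with earlier results of these data known. Genes named are the 12 with the most antisense counts, the 5 highest in each class of neighbour, the 3 nearest each side of each threshold, those sharing a neighbour with 2 or more others, and KLB. Some genes and sequences that this takes are not reported here. Others are said to be named after their values were seen. SCUBE3, BLK and CA14 also fit none of these rules and were picked with their values known. Alternatives were other minimums, ratios, scalings, neighbour definitions and each replicate alone.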

Additional observations from a re-analysis of the deposited data

How the results depend on the processing

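Other count minimums, ratios, pseudocounts and scalings gave between 236 and 437 genes in place of 344, and leaving out a replicate 301 to 376. Taking only genes whose exons overlap no other-strand exon left 124. At ratios of 20 and 5, overlapping genes numbered 204 of 257 and 335 of 421, in place of 272 of 344. Without replicate 1 they numbered 242 of 301, and without replicate 2 297 of 376. Of the 344, 212 overlapped with coding neighbours only, 240 with a neighbour minimum of 30 and 298 with any other-strand gene. Convergent genes numbered 34 when any other-strand gene with a row counted as neighbour, 74 with a neighbour minimum of 30, 82 with coding neighbours only, 43 within 10 kb and 51 within 20 kb, in place of 59, and 47 to 61 without a replicate. Divergent genes numbered 18 with a neighbour minimum of 30, 21 with coding neighbours only, and 5 within 10 or 20 kb, in place of 9, and 8 to 12 without a replicate. Genes with no neighbour numbered 0 with any gene, 12 with the minimum of 30, 29 with coding neighbours, 24 within 10 kb and 16 within 20 kb, in place of 4, and 4 to 6 without a replicate. The Spearman correlation of the pairs was 0.296 on raw counts, 0.319 with the neighbour minimum of 30 and 0.341 to 0.382 without a replicate, and the median ratio 0.338, 0.452 and 0.477 to 0.486. Without a replicate, an alternative added after the data were seen, the median share of pairs in other-strand exons was 12.1% to 14.3%. For changes that follow from a narrower or wider definition of neighbour, the definition itself sets them, and for the others the cause was not tested. No paired analysis was possible because the design holds no other condition. At the minimum of 30 counts a gene rests on few read pairs, the exons used may differ from those the authors counted on, and RNA between genes is in no count, so a transcript running from the neighbour into the gene was not followed.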

Other observations

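The same rule applied to genes outside the set gave similar cases. On the X chromosome 5 of 838 coding genes met it, with GABRQ, a subunit of GABA receptors, highest at a mean of 143.5 antisense counts, and GPR82 at 66 inside CASK. Among autosomal long noncoding RNAs 808 of 13781 (5.86%) met it, led by FGF14-AS2 (2069 and 1417 antisense counts) and FGF14-AS1 (1860 and 1571), both inside FGF14, and ADAMTS9-AS1 (1826 and 1598) opposite ADAMTS9. These 3 were chosen for this pattern, and TTN-AS1 and A2M-AS1 had sense counts instead. TUSC7 had 1644 and 1459 inside LSAMP. Among autosomal pseudogenes 309 of 13593 (2.27%) met it, with LIPT1P1 (495 and 404), which also lies inside FGF14, among the highest.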
